A study of Mus musculus with 2 samples.

Results

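The genes described here encode the nuclear subunits of the respiratory chain and of ATP synthase, measured as messenger level in the adrenal gland. A gene was a member when it had a transcript typed as protein-coding and a symbol starting with Nduf (Ndufaf assembly factors left out), Uqcr, Cox4 to Cox8 or Atp5, or when it was Sdha, Sdhb, Sdhc, Sdhd, Cyc1 or Cycs. The rule found 88 genes with 87 distinct symbols among 55536 annotated genes. The background is the 22015 protein-coding genes that are not on the mitochondrial chromosome, called nuclear protein-coding genes. They fell into 36 genes of complex I, 4 of complex II, 9 of complex III, 20 of complex IV, 18 of complex V and cytochrome c. Ndufa4 and Ndufa4l2 were placed in complex IV, where their proteins are found, although their symbols carry the complex I prefix. The second entry named Atp5o held 0 counts in both libraries and is counted as a member without being described further.

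Total RNA was sequenced in 2 libraries, called replicates 1 and 2, from adrenal glands of male B6CASTF1/J mice aged 14 days, which are first-generation offspring of C57BL/6J and CAST/EiJ. Both libraries belong to a single group, each was started from 300 ng of RNA, and both carry ERCC spike-ins, synthetic RNAs added at known amounts. The labels call them separate biological replicates of "3x Males", a wording they do not explain, and carry a pool number that is shared in a first field and not in a second. The spread given as SD (n = 2) may therefore be technical and may not span separate animals. The design holds no comparison of conditions, so the values are described without p-values. The unit throughout is TPM (a relative level of transcripts that accounts for gene length and depth of sequencing) of the RSEM gene tables, unless kallisto, the second deposited quantification, is named.

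The respiratory chain passes electrons from NADH through complex I, and from succinate through complex II, to ubiquinone, then through complex III, cytochrome c and complex IV to oxygen. Complexes I, III and IV pump protons across the inner mitochondrial membrane, and complex V, the ATP synthase, uses their return to make ATP. Most subunits are encoded in the nucleus and imported, while a smaller set is encoded in mitochondrial DNA. In the adrenal cortex the same organelle holds the cytochrome P450 enzyme that opens steroid synthesis and the 11-beta-hydroxylase that completes corticosterone, so its cells are rich in mitochondria.

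The libraries held 32963248 and 36260745 expected counts. The tissue label was checked on marker genes: 6 of 6 adrenal cortex markers and 5 of 5 medulla markers were detected, with summed levels of 5919 and 6436 TPM for cortex and 1305 and 1336 TPM for medulla in replicates 1 and 2. Markers of other tissues were present too. All 4 liver markers were over 2-fold higher in replicate 2, with a summed level of 236 TPM in replicate 1 and 4138 in replicate 2. The 4 lymphocyte markers summed to 32.7 and 4.75 TPM, and the 5 red cell markers to 9655 and 7441 TPM. The 6 brown fat markers were all detected and summed to 1286 and 1403 TPM, and the 5 fat markers to 1789 and 1725 TPM. Of 8 skeletal and heart muscle markers only Mylpf was detected, and the list summed to 2.44 and 2.37 TPM. The part of these tissues in the levels below was not tested.

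Nearly all of the subunit genes were expressed, and most at a high level. At least 1 TPM in both libraries was found for 84 of 88 members, against 54.2% of all nuclear protein-coding genes. At least 100 TPM in both libraries was found for 65 members, a level that 1.75% of nuclear protein-coding genes reached. The median over the 84 detected members was 163 ± 1.74 TPM (SD, n = 2), against a median of 8.88 TPM over the 11942 detected nuclear protein-coding genes. Of all nuclear protein-coding TPM the members together held 6.68% in replicate 1 and 6.43% in replicate 2, or 6.55% ± 0.176 (SD, n = 2). Their share of the reads was smaller, 2.42% ± 0.0788 of the expected counts of nuclear protein-coding genes. The member genes are short, with a median length of 657.6 bases against 2403 for detected nuclear protein-coding genes, and TPM divides by length. In bulk tissue, fewer cells of a type and less RNA per cell cannot be told apart.

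The complexes differed in the typical level of their subunits. The median of the detected subunits was 363 ± 4.22 TPM (SD, n = 2) for complex IV, 266 ± 8.64 for complex III, 198 ± 7.19 for complex II, 169 ± 3.78 for complex V and 126 ± 5.33 for complex I. The values of neighbours in this order did not overlap between the libraries, and the smallest gap, between complexes II and V, was 28.8 TPM. That last order turned by kallisto, with 256 for complex II and 303 for complex V on its own TPM scale, and with kallisto effective lengths, with 114 and 148 TPM. It turned as well for the mean over subunits, 198 TPM for complex II and 226.9 for complex V. At the top, complex IV fell below complex III when undetected genes were kept, with medians of 262 and 266 TPM. By sum, complex IV took 2.12% ± 0.0655 of nuclear protein-coding TPM, complex I 1.84% ± 0.0597, complex V 1.40% ± 0.0243, complex III 0.901% ± 0.0201 and complex II 0.286% ± 0.00625. Complex I thus ranked last by its median subunit and second by its sum, having the most genes. With Ndufa4 and Ndufa4l2 counted in complex I, its sum of 2.01% stood above the 1.95% of complex IV.

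**Figure D1:**
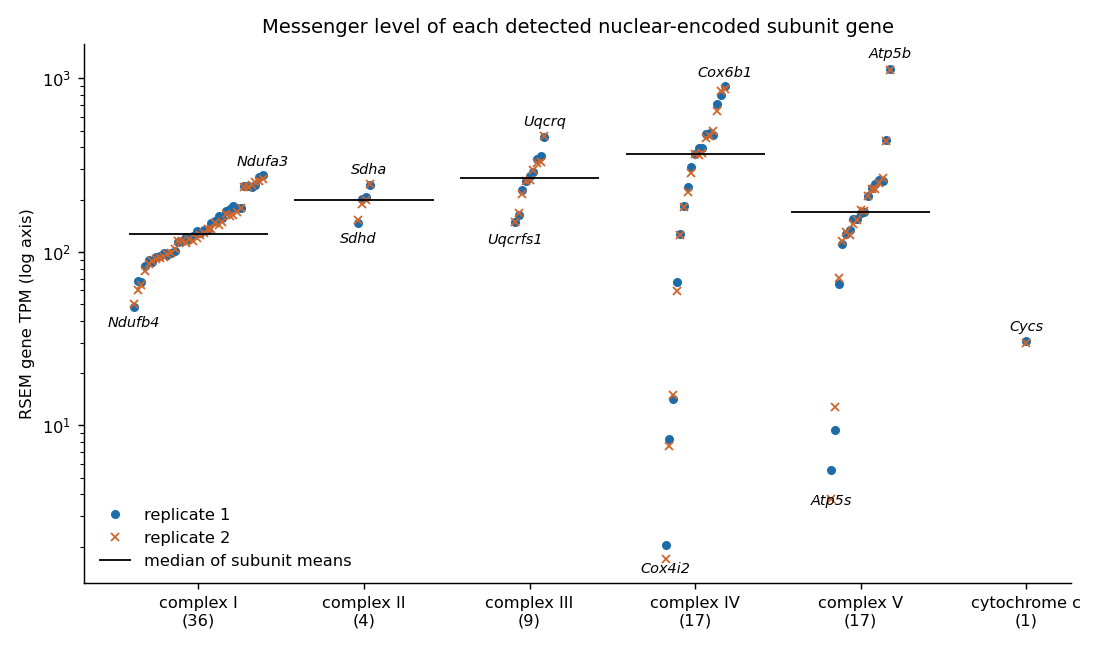
RSEM gene TPM (vertical log axis) of the 84 detected members, grouped by complex on the horizontal axis with the number of genes in parentheses; circles are replicate 1, crosses replicate 2 and the line is the median of the subunit means. Complex I subunits lie within a 5.50-fold range from Ndufb4 to Ndufa3, while complex IV spans 471-fold and complex V 243-fold.

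Complex I takes electrons from NADH. All 36 of its genes were detected, and 25 reached 100 TPM in both libraries. The core subunits, which include those that carry the flavin and the iron-sulfur clusters, had a median of 153 ± 6.19 TPM (SD, n = 2, 7 genes), and the 29 accessory subunits 124 ± 6.59. Of the core subunits, Ndufv1, which binds NADH and the flavin, stood at 182 and 163 TPM in replicates 1 and 2. Its neighbour Ndufv2, which holds an iron-sulfur cluster, stood at 176 and 161 TPM, so the ratio of Ndufv1 to Ndufv2 was 1.02 ± 0.0198. Ndufs3 followed with 157 and 149 TPM. Ndufs7 and Ndufs8, which pass electrons towards the quinone, were lower and close to each other, with 123 and 115 TPM for Ndufs7 and 119.0 and 118.6 for Ndufs8. Ndufs1, the largest core subunit, was lowest of the core at 95.5 and 97.4 TPM.

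The highest accessory genes of complex I by RSEM were Ndufa3 with 275 and 263 TPM, Ndufb8 with 269 and 254, and Ndufab1, the mitochondrial acyl carrier protein, with 242 and 253. The lowest were Ndufb4 with 48.1 and 49.7 TPM and Ndufb3 with 67.6 and 60.4. By kallisto Ndufb8 was highest and Ndufa2 lowest. Ndufb4 ranked lowest of complex I by RSEM only, as given below with its pseudogene copy. The middle of the complex was narrow: the upper quartile of its 36 genes was 1.76-fold above the lower quartile.

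Complex II, succinate dehydrogenase, links the citric acid cycle to the chain and has no mitochondrially encoded subunit. Sdha, the flavoprotein that oxidises succinate, stood at 243 and 245 TPM. Sdhb, the iron-sulfur subunit, stood at 201 and 189 TPM. The membrane anchors were Sdhc with 206 and 198 TPM and Sdhd with 147 and 153 TPM. The 4 genes lay within 1.63-fold of each other, the narrowest range of the 5 complexes, with the fewest genes. By RSEM Sdha was highest and Sdhd lowest in both libraries, and by kallisto Sdhb was highest and Sdhc lowest. By RSEM the values of Sdhb and Sdhc overlapped between libraries.

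Complex III passes electrons from ubiquinol to cytochrome c. All 9 genes were above 100 TPM in both libraries. The highest were Uqcrq, a small subunit, with 459 and 467 TPM, Uqcrc1, a core protein on the matrix side, with 355 and 330, and Uqcr11 with 341 and 324. By RSEM the catalytic nuclear-encoded subunits were among the lower ones. Cyc1, which carries the cytochrome c1 haem, stood at 228 and 215 TPM, and Uqcrfs1, the Rieske iron-sulfur protein, was lowest at 148 in both libraries. By kallisto Uqcrfs1 was lowest too, while Cyc1, with a mean of 548 TPM on that scale, stood above Uqcrb, Uqcrc2 and Uqcrh. Uqcrc2, the partner of Uqcrc1, stood at 162 and 167 TPM, so Uqcrc1 exceeded it 2.08 ± 0.145-fold (SD, n = 2), and 1.53 ± 0.0866-fold by kallisto.

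Complex IV, cytochrome c oxidase, reduces oxygen and is the complex with the most tissue-specific subunit forms. Its 10 broadly expressed nuclear subunits had a median of 381 ± 21.4 TPM. Cox6b1, which faces the intermembrane space, was highest by RSEM with 901 and 863 TPM. It was not highest by kallisto, where Cox8b, Cox4i1, Cox6c and Cox6a1 stood above it in both libraries. Cox8a was above it in replicate 1 only, with 783 and 692 kallisto TPM against 751 and 720 for Cox6b1. Cox4i1 followed the heart-type form Cox8b in rank, with 711 and 644 TPM. Cox5b and Cox5a, which sit on the matrix side, stood at 482 and 467 TPM and at 307 and 285 TPM. Ndufa4 stood at 474 and 452 TPM.

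The forms known from heart, skeletal muscle and brown fat divided into genes with high levels and a gene at the limit of detection. Cox8b stood at 801 and 849 TPM, above its broadly expressed partner Cox8a at 397 and 360 TPM, a 2.18-fold excess (log2 ratio of Cox8a to Cox8b -1.13 ± 0.16, SD, n = 2). Cox7a1 stood at 366 and 367 TPM, above Cox7a2 at 126 and 125 TPM, a 2.92-fold excess (log2 ratio of Cox7a2 to Cox7a1 -1.55 ± 0.01). In neither pair did the genes overlap between libraries. By kallisto the excess was 2.07-fold for Cox8b and 1.78-fold for Cox7a1, and with kallisto effective lengths 3.29-fold and 3.25-fold. These are ratios of TPM, which divides by length. In kallisto counts Cox8b, with 3508 and 3913, was below Cox8a with 4699 and 4644. Cox7a1, with 1986 and 2114, was below Cox7a2 with 2275 and 2414. Kallisto effective lengths in replicate 1 were 87.5 bases for Cox8b, 228 for Cox8a, 114 for Cox7a1 and 234 for Cox7a2. In RSEM counts Cox8b, with 6874 and 7892, was above Cox8a with 5884 and 5786. Cox7a1, with 3580 and 3877, was above Cox7a2 with 2274 and 2405. Cox6a2, the muscle partner of Cox6a1, had 1 count in replicate 1 and 0 in replicate 2, while Cox6a1 stood at 474 and 498 TPM. With 3 counts taken as the limit, which is 0.157 and 0.145 TPM, Cox6a1 was at least 3014-fold higher in replicate 1 and at least 3437-fold higher in replicate 2. Of the muscle forms, Cox7a1 and Cox8b were thus high and Cox6a2 was not.

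Brown fat expresses Cox7a1 and Cox8b too, and its markers were present. Ucp1, the uncoupling protein that defines brown fat, stood at 724 and 861 TPM, Cidea at 396 and 378, and Cpt1b at 152 and 142. Elovl3, Dio2 and Ppargc1a, the other brown fat markers, lay between 1.97 and 11.8 TPM, and none of the 6 was at 0. The muscle markers Acta1 and Ckm stood at 0.36 and 0.40 TPM and at 0.21 and 0.20 TPM. Of the 6 brown fat markers 4 were higher in replicate 2, namely Ucp1 1.19-fold, Elovl3 1.20-fold, Dio2 1.34-fold and Ppargc1a 2.10-fold, while Cidea and Cpt1b were lower there. Cox8b was 1.06-fold higher in replicate 2, and Cox7a1 differed by 1.00-fold. The part of brown fat in the levels of Cox7a1 and Cox8b was not tested.

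**Figure D2:**
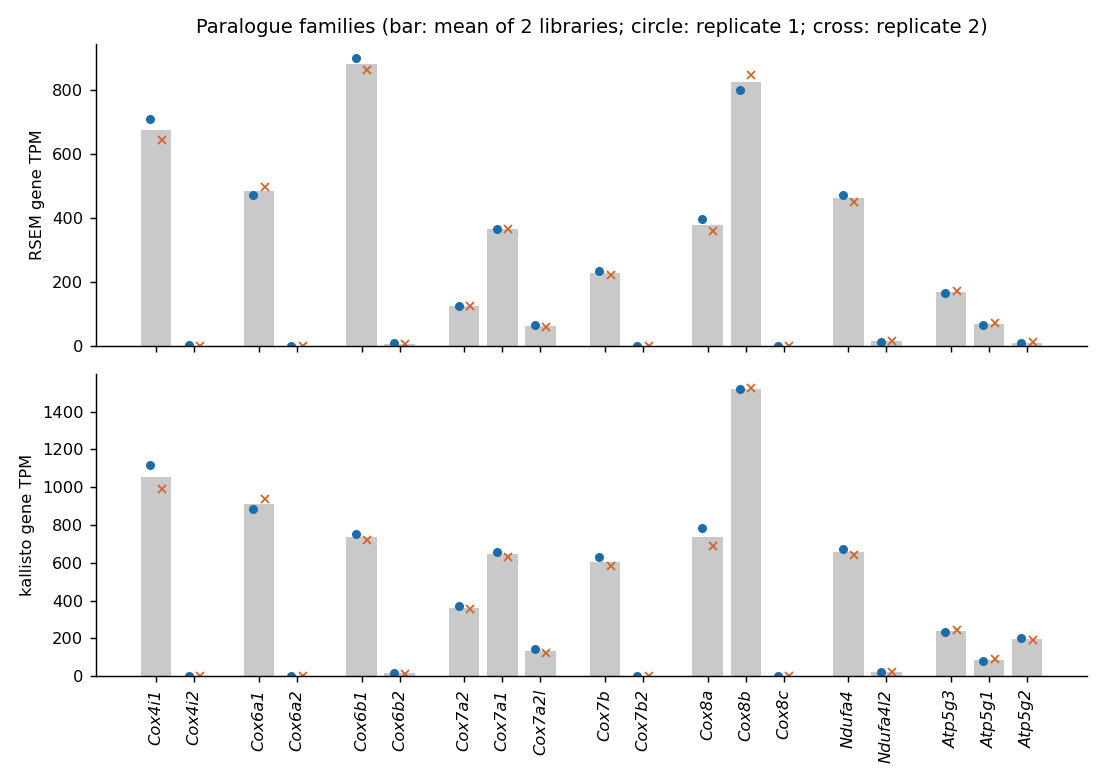
Gene TPM of the paralogue families by RSEM (upper) and kallisto (lower); each bar is the mean of the 2 libraries, circles are replicate 1 and crosses replicate 2, on linear axes that start at 0. Cox7a1 and Cox8b stand above Cox7a2 and Cox8a in both quantifications, while Atp5g2 is near 0 by RSEM and close to Atp5g3 by kallisto.

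The remaining complex IV families were ruled by the broadly expressed gene. Cox4i2, known from lung, stood at 2.04 and 1.70 TPM, and Cox4i1 exceeded it 363-fold. Cox6b2, known from testis, stood at 8.33 and 7.57 TPM, and Cox6b1 exceeded it 111-fold by RSEM and 49.8-fold by kallisto. The other testis forms, Cox7b2 with 0 counts in both libraries and Cox8c with 1 and 0, were at or under the limit of 3 counts. Cox7b exceeded Cox7b2 at least 1143-fold and 1170-fold in replicates 1 and 2, and Cox8a exceeded Cox8c at least 1561-fold and 1535-fold. None of the 4 germ cell markers was detected, and Tnp1 and Prm1 had 0 counts. Ndufa4l2, known as a hypoxia-induced relative of Ndufa4, stood at 14.3 and 15.02 TPM, 31.6-fold below Ndufa4. Cox4i2 and Ndufa4l2 are also known from pericytes, and the 6 smooth muscle and pericyte markers, all detected, summed to 90.6 and 62.45 TPM. The part of those cells in both levels was not tested. Cox7a2l, a factor that joins complexes III and IV, stood at 67.1 and 59.4 TPM.

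Complex V consists of the catalytic F1 head in the matrix and the membrane part Fo. Atp5b, the catalytic beta subunit, was the highest of all members with 1139 and 1118 TPM and ranked 10 among nuclear protein-coding genes. Atp5a1, the alpha subunit, which alternates with beta at equal number in the head, stood at 440.0 and 433 TPM. The ratio of Atp5b to Atp5a1 was 2.59 ± 0.00358 (SD, n = 2), and 2.35 ± 0.0331 by kallisto. The central stalk genes were Atp5c1 (gamma) with 155 and 152 TPM, Atp5d (delta) with 261 and 248, and Atp5e (epsilon) with 133 and 125. In the assembled head alpha and beta are present in equal number, and gamma, delta and epsilon once each. The F1 messengers spanned 8.76-fold from Atp5e to Atp5b by RSEM. By kallisto the ratio of Atp5b to Atp5e was 4.15 ± 0.298, which was not the full span. The lowest F1 gene there was Atp5c1, with a mean of 277 TPM on the kallisto scale, against 426 for Atp5e and 1763 for Atp5b.

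Among the Fo and peripheral stalk genes Atp5k was highest by RSEM with 257 and 268 TPM, and Atp5h by kallisto. The peripheral stalk genes were Atp5o, the oligomycin sensitivity protein, with 233 and 229.5 TPM, Atp5h with 245 and 231, Atp5f1 with 127 and 129.7, and Atp5j with 111 and 116. Atp5s, which the symbol rule brings in although it is a coupling factor and no standing subunit, was the lowest detected gene of complex V with 5.55 and 3.75 TPM. Its 145 and 162 counts make it one of the least precise members.

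The c ring, which turns as protons pass, is built from a single mature protein that Atp5g1, Atp5g2 and Atp5g3 all encode behind different import sequences. Atp5g3 stood at 167 and 173 TPM, Atp5g1 at 65.0 and 70.8, and Atp5g2 at 9.44 and 12.8. By RSEM, Atp5g3 gave 68.3% ± 1.17 of the messenger of the 3 genes, Atp5g1 27.2% ± 0.428 and Atp5g2 4.44% ± 0.745. By kallisto, Atp5g2 gave 37.8% ± 1.78, Atp5g3 45.8% ± 0.788 and Atp5g1 16.4% ± 0.987. The order of Atp5g1 and Atp5g2 thus turned between the quantifications. Atp5g3 exceeded Atp5g2 15.5-fold by RSEM, 1.21-fold by kallisto and 1.44-fold by RSEM when reads on pseudogene copies were added to each gene. The last 234 coding bases of the 3 genes translate to the same residues, yet Atp5g1 and Atp5g2 share 84.6% of these bases, Atp5g1 and Atp5g3 78.6%, and Atp5g2 and Atp5g3 77.4%. The last 90 coding bases before the stop codon, from GENCODE M21 transcripts, are shown to let the difference between the genes be seen; capitals mark the 24 positions that are not alike in all 3, of which 20 are the last base of a codon and 4 the first base.
Atp5g1: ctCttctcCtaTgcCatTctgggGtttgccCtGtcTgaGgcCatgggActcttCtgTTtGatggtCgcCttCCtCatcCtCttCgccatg
Atp5g2: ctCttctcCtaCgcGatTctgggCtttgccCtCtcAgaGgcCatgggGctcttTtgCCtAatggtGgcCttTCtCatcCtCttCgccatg
Atp5g3: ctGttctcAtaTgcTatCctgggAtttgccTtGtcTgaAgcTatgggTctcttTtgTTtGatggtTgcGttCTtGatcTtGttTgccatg

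Cycs, the mobile carrier cytochrome c, stood at 30.7 and 29.7 TPM, below the median of each complex by RSEM. Cyc1 exceeded it 7.32 ± 0.128-fold by RSEM and 1.28 ± 0.0771-fold by kallisto. By RSEM, 89.99% ± 0.152 of Cycs TPM lay on the protein-coding transcript Cycs-202 of 3123 bases, and by kallisto 91.5% ± 0.308 lay on Cycs-201, a 607-base transcript typed as retaining an intron. The level of Cycs is therefore uncertain.

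Several subunit genes have processed pseudogenes, copies of the spliced messenger set elsewhere in the genome, whose reads cannot always be told from those of the gene. A pseudogene entry with at least 95% identity over at least 100 bases was found for 24 of the 88 members, 49 pairs in all. For 9 members RSEM placed over 5% of the reads of gene and copies together on the copies, and for 3 members kallisto did, counted over detected members. The second Atp5o entry, which is not detected, is left out of the 9 and the 3; with 0 RSEM counts of its own, all reads were on its copy. Atp5g2 (chr15:102662864-102672352, mm10, minus strand) held 194 and 286 counts, while 2248 and 2331 counts lay on its copies. The main copy, Gm10175 (chr7:23946646-23947290), matches it over 645 bases at 100% identity. By RSEM the copies thus took 90.6% ± 2.12 of the reads, and by kallisto 0. The credibility bounds of the Atp5g2 level deposited by the authors were correspondingly wide, from 4.47 to 19.0 TPM in replicate 1 and from 8.56 to 21.3 TPM in replicate 2.

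By RSEM, reads were also divided between gene and copies for other members. Ndufb4 had 58.6% ± 1.03 of its reads on copies by RSEM, mainly Ndufb4c, which matches it over 390 bases at 100% identity. Atp5l had 30.3% ± 1.13 on copies, Cycs 26.0% ± 1.38, Cox7a2l 18.2% ± 0.493, Atp5h 15.6% ± 0.399 and Ndufa12 10.9% ± 2.17. For Ndufb4, Atp5l, Cycs, Atp5h, Cox7c and Ndufs5 kallisto placed under 0.1% of the reads on the copies. In the other direction, kallisto placed 22.5% ± 1.16 of the Ndufab1 reads on copies, where RSEM placed 1.49% ± 0.958. Copies typed as protein-coding were not in these shares: Gm10053, 99.9% identical to Cycs over 946 bases, held 4299 and 4458 counts by RSEM, more than Cycs itself with 2799.9 and 2936, and Gm11273, 99.2% identical to Cox5b over 390 bases, held 443 and 514 counts.

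**Figure D3:**
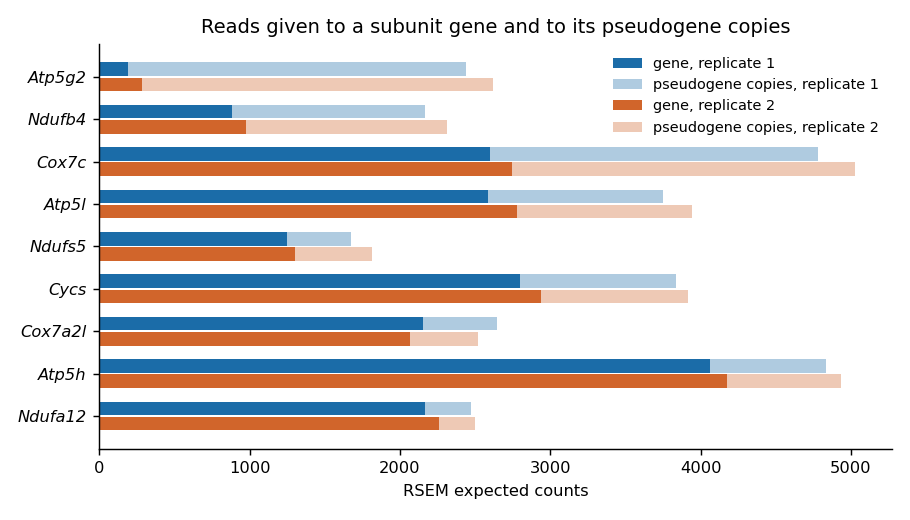
RSEM expected counts (horizontal axis) given to 9 subunit genes (dark) and to their pseudogene copies (pale), stacked, with replicate 1 above replicate 2 for each gene. The copies hold most of the stacked counts for Atp5g2 and Ndufb4 and 45.5% for Cox7c, alike in both libraries.

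Cox7c, which had 45.5% ± 0.216 of its reads on copies by RSEM, shows the limit of such an assignment. Its 189 coding bases before the stop codon (gene at chr13:86044816-86046904, mm10, minus strand) are all contained in Gm12338, a 192-base entry at chr11:75599763-75599954, so no read that lies within them can separate the gene from the copy. They are given here from the GENCODE M21 transcript Cox7c-203.
Cox7c and Gm12338: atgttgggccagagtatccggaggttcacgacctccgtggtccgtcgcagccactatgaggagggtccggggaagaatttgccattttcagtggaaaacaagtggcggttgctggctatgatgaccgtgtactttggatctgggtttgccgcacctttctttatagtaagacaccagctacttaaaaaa

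Ndufs5, a complex I subunit with 26.9% ± 2.05 of its reads on BC002163 by RSEM, differs from that copy at 2 of 318 coding bases. Counted from 1 at the first base of the start codon, with the base of Ndufs5 first, these are T81C and A105G. The stretch from coding base 63 to 122 is given for the gene (chr4:123712710-123718202, minus strand) and the copy (chr16:42955631-42955949, plus strand), with the differing bases in capitals. A read that lies within the 318 coding bases and covers neither position is the same in both.
Ndufs5: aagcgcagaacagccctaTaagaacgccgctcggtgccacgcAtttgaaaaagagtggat
BC002163: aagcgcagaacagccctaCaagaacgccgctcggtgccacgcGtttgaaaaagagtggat

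The quantifications gave similar TPM for most members and very different TPM for a few. Kallisto TPM was scaled to the RSEM total of nuclear protein-coding genes for this comparison, since those genes took 27.4% and 27.8% of all RSEM TPM and 45.9% and 45.5% of all kallisto TPM. On that scale 70 of the 84 detected members lay within 1.5-fold of each other, and the median ratio of kallisto to RSEM was 1.04. Similar TPM did not always mean similar counts, since the effective lengths differed too. The TPM ratio was 1.11 for Cox8b, 1.06 for Cox7a1 and 0.990 for Uqcrq, while their count ratios were 0.503, 0.550 and 0.600. For Atp5b the ratios were 0.943 in TPM and 1.03 in counts. Across these 84 genes of the same libraries Pearson's r of the log2 levels was 0.898 and Spearman's rho 0.848, given as a description over genes that are not independent. Kallisto was over 2-fold higher for 4 genes: Atp5g2 10.7-fold, Cycs 8.56-fold, Ndufb4 3.43-fold and Cox7c 2.28-fold. These 4 were among the 9 genes with over 5% of reads on pseudogene copies by RSEM. Atp5e followed with 1.99-fold. RSEM was highest relative to kallisto for Cox6b1 (1.99-fold), Sdhc (1.97-fold), Ndufa1 (1.72-fold), Ndufa10 (1.59-fold) and Ndufab1 (1.53-fold).

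**Figure D4:**
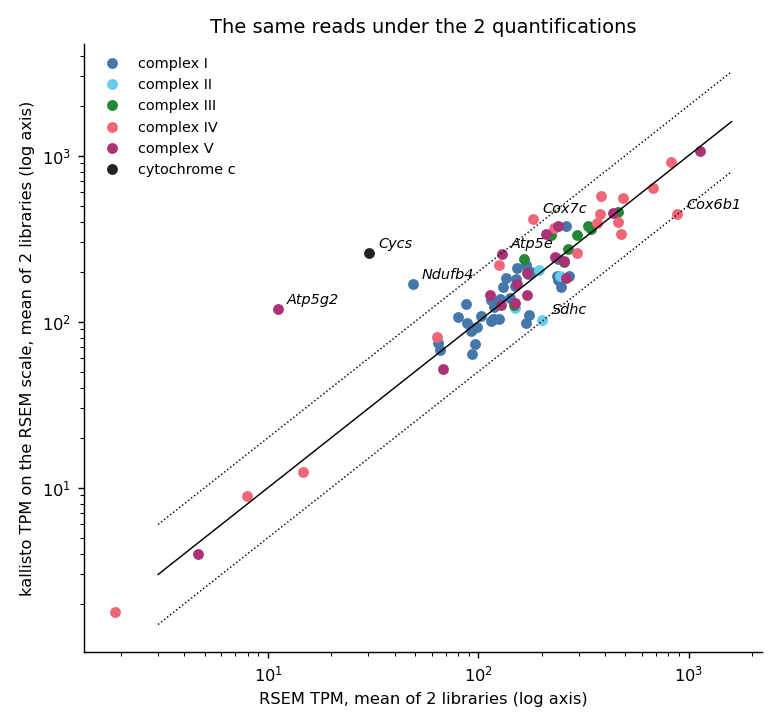
Mean TPM over the 2 libraries by RSEM (horizontal log axis) and by kallisto on the RSEM scale (vertical log axis) for the 84 detected members, coloured by complex; the solid line marks equal values and the dotted lines 2-fold. Atp5g2, Cycs, Ndufb4 and Cox7c lie above the upper dotted line, and no gene lies below the lower one.

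The quantifications also divided a gene's level among its transcripts differently. The top transcript took a median of 91.1% of a member's TPM by RSEM and 82.0% by kallisto, and in 43 of 84 genes it took over 90% by RSEM. Both quantifications named the same top transcript in 52 of the 84 genes. Of these 84 genes, 75 had more than a single annotated transcript. For the rest, the top transcript and its full share were fixed by the annotation and could not differ. Those genes are counted in the 52, in the 43 and in both medians, which therefore overstate the agreement and the dominance. The top transcript was not typed as protein-coding in 9 genes by RSEM and in 20 by kallisto. Ndufa3, the highest complex I gene by RSEM, had 90.9% ± 0.320 of its RSEM TPM on Ndufa3-204, a transcript typed as subject to nonsense-mediated decay, and 59.1% by kallisto. Protein-coding transcripts held under 50% of the TPM in 9 genes by RSEM and in 20 by kallisto. They held 33.9% of Ndufab1 by RSEM and 14.6% by kallisto, 20.6% and 52.6% of Atp5j, and 47.5% and 82.0% of Cox5b. For Atp5k the shares were 98.7% and 0.333%. Gene-level TPM of such members therefore includes transcripts that are not annotated to make the subunit. Ndufv3, the flavoprotein subunit with a short and a long protein form, gave the same picture in both: the 493-base Ndufv3-202 took 79.9% ± 1.57 of RSEM TPM and the 1582-base Ndufv3-201, which holds the long exon, 19.2% ± 1.56, against 82.8% ± 2.56 and 15.8% ± 2.38 by kallisto. Cox8b has a single annotated transcript of 360 bases, and Cox7a1-201 took 96.6% ± 0.674 of Cox7a1.

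The median messenger of the mitochondrially encoded partners stood far above that of the nuclear subunits. In complex I the median of 7 mitochondrial messengers was 4937 and 5357 TPM against 130.1 and 123 TPM for the nuclear ones, 40.7-fold higher (log2 5.35 ± 0.14, SD, n = 2). In complex III mt-Cytb, the cytochrome b messenger, stood at 10198 and 10325 TPM, 38.6-fold above the nuclear median. In complex IV the fold was 31.8, and in complex V 74.8. By kallisto the folds were 24.0, 26.1, 6.72 and 31.1 for complexes I, III, IV and V. The direction of the medians held in each of these complexes and the size did not, and single genes fell below the nuclear median of their complex, as mt-Co2 did by RSEM and mt-Nd4l and mt-Atp8 by kallisto. Single mitochondrial genes differed more: on each quantification's own TPM scale mt-Co2 stood at 73.8 and 71.5 by RSEM and 1025 and 806 by kallisto. The messenger mt-Co3 stood at 11386 and 11729 by RSEM and 4664 and 4033 by kallisto, and mt-Atp8 at 9487 and 9916 by RSEM while kallisto listed it at 0.

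Genes that build and control the chain had lower median levels than the 163 TPM of the detected members, though single genes overlapped with them. All 48 assembly factors of a list were detected, with a median of 12.4 TPM and a range from 1.57 TPM (Sdhaf3, a factor for the iron-sulfur subunit of complex II) to 133 TPM (Cox17, which carries copper to complex IV). Cox17 stood at 139 and 128 TPM, and Cox14, next in the list, at 53.0 and 47.7. Of 16 regulators 15 were detected, with a median of 9.78 TPM. Esrra, a nuclear receptor that activates subunit genes, stood at 17.9 and 17.1 TPM, Gabpa at 15.7 and 14.8, Nrf1 at 6.13 and 6.30 and Yy1 at 20.7 and 20.03. Esrrb stood at 0.09 and 0.07 TPM and was not detected. Ppargc1a, a coactivator that is also among the brown fat markers, stood at 4.01 TPM in replicate 1 and 8.43 in replicate 2, and no other gene of the assembly factor and regulator lists that averaged 5 TPM or more differed over 2-fold.

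The subunit genes differed little between the libraries. Among the 82 members that averaged 5 TPM or more, 0 differed over 2-fold. Of nuclear protein-coding genes at that level, 2.27% were past 2-fold with replicate 2 the higher and 0.481% with replicate 1 the higher. The median absolute difference of log2(TPM + 1) was 0.06 over members and 0.12 over all 8314 such genes. Over the 414 genes averaging 100 TPM or more it was 0.11. The median signed difference, replicate 2 minus replicate 1, was -0.04 for members and -0.04 for all genes; with TMM factors the sign for members turned to 0.044, and with ERCC scaling it was -0.12. On the deposited scale, lower values in replicate 2 were found for 56 of 82 members, or 68.3%, against 60.9% of all genes, a share near the background. By complex, 28 of 36 genes of complex I, 2 of 4 of complex II and 5 of 9 of complex III were lower in replicate 2. For complexes IV and V the counts were 12 of 16 and 8 of 16, beside the same 60.9% of all genes.

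The largest differences were small in size or rested on few reads. Atp5g2, the gene whose reads were shared with Gm10175, was 1.35-fold higher in replicate 2 by RSEM, and its credibility bounds overlapped. By kallisto it stood at 201 and 193 TPM, lower in replicate 2. Atp5g1 was 1.09-fold, Cox8b 1.06-fold, Ndufa4l2 1.05-fold and Cox6a1 1.05-fold higher there. In the other direction Atp5s was 1.48-fold higher in replicate 1 by RSEM TPM, Cox4i2 1.20-fold, Cox7a2l 1.13-fold, Ndufa5 1.12-fold and Ndufv1 1.12-fold. The direction turned for Atp5s by kallisto, with 6.16 and 6.95 TPM, and in its RSEM counts of 145 and 162, beside an RSEM effective length of 796 bases in replicate 1 and 1211 in replicate 2. The credibility bounds of Atp5s overlapped between the libraries, from 4.03 to 7.10 TPM and from 3.32 to 5.07 TPM. The chi-square of rounded counts per degree of freedom was computed to see whether 1 library had been deposited under both labels. It was 4.23 over 84 members and 56.3 over 15525 nuclear protein-coding genes. A library deposited under both labels would show no difference in counts, so the 2 libraries are not the same data. Both values were also above what counting error alone would give.

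**Figure D5:**
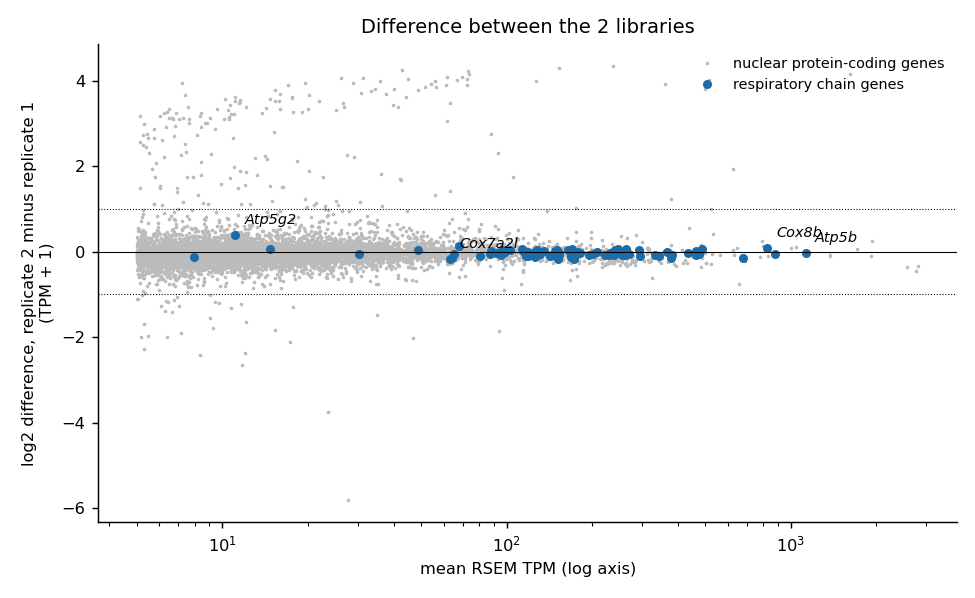
Log2 difference of TPM + 1, replicate 2 minus replicate 1 (vertical axis), against mean TPM (horizontal log axis) for nuclear protein-coding genes averaging 5 TPM or more (grey) and the 82 members among them (blue); dotted lines mark 2-fold. All 82 members lie between the dotted lines, with Atp5g2 the farthest from 0 at 0.40.

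Subunit genes are known targets of a few shared transcription factors, and their promoters were searched for simple letters of those sites. RefSeq windows from 250 bases before to 50 bases after an annotated start (GRCm38.p6) were matched for 70 of the 88 members, 75 windows in all, by gene identifier. Exact letters were searched on both strands, and the share was set beside that of 21263 windows of protein-coding genes. CCGGAAG, the ETS site bound by Gabpa, was in 21.3% of member windows and 11.6% of coding windows. AAGATGGCG, the YY1 site, was in 9.33% and 1.83%. TGCGCATGC, the core of the Nrf1 site, was in 6.67% and 1.98%, and TCAAGGTCA, the site of the estrogen-related receptors, in 2.67% and 0.334%. GGGGCGG, the Sp1 site, was in 26.7% and 30.9%. The members' share was higher for the first 4 and lower for the Sp1 letters, with counts of 16, 7, 5 and 2 windows for the first 4. No letters of one site are contained in those of another. Median GC content was 57.7% in member windows and 56.3% in coding windows.

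By complex, the motif counts were small and no difference between complexes was tested. The YY1 letters were in 5 of 32 matched genes of complex I (Ndufa9, Ndufc1, Ndufs4, Ndufs6 and Ndufs7) and in Atp5j and Atp5j2 of complex V, and in none of 14 of complex IV. The Nrf1 letters were in Ndufa6, Ndufa8, Uqcrc1, Atp5g2 and Atp5l. The estrogen-related receptor letters were in Sdhd and Atp5g3. Of the 14 matched genes of complex IV, 3 held the ETS letters, 2 the Sp1 letters and 0 the Nrf1, YY1 or estrogen-related receptor letters. Most of them thus held none of the 5 motifs, with Cox7a1, Cox7a2 and Cox8b among these. The window of Cox8a held the ETS letters at 2 places. Such matches describe letters in these windows and do not show binding.

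Printed here are 3 stretches from 120 bases before to 30 bases after the annotated start: Cox8b and Cox8a, the pair whose heart-type form was the higher, and Atp5j, which holds ETS and YY1 letters. Capitals mark motif letters on either strand. The TATAAA letters in Cox8b were searched after its window was seen. They lie 5 bases after the annotated start and occur in 10.7% of member windows and 12.6% of coding windows. The ETS letters of Cox8a lie 5 bases before the start on the opposite strand, and another match 33 bases after it is outside the printed stretch. In Atp5j the YY1 letters lie 88 and the ETS letters 61 bases before the start.
Cox8b chr7:140900417-140900566 (minus strand): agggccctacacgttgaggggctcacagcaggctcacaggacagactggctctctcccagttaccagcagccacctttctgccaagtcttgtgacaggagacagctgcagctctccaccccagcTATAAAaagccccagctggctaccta
Cox8a chr19:7217587-7217736 (minus strand): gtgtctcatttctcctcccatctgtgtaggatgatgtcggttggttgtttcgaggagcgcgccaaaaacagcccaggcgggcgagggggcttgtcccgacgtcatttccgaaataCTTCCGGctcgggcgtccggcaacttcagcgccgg
Atp5j chr16:84834947-84835096 (minus strand): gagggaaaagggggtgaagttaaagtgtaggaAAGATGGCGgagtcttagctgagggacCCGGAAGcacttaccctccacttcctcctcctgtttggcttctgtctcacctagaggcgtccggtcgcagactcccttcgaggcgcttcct

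Some subunits carry symbols that the rule does not reach. Usmg5, a small ATP synthase subunit, stood at 262 and 253 TPM, within the range of the Fo genes. Atpif1, the inhibitor of ATP synthase, stood at 95.1 and 96.3 TPM. Ndufb1-ps, the mouse gene of a complex I subunit, is typed as a non-coding gene in the annotation and stood at 60.9 and 58.7 TPM. Adding such genes would raise the sums given for complexes I and V.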

How the data were processed

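Total RNA from adrenal glands was sequenced in 2 libraries of 1 group, from 300 ng each. Replicate numbers are those of the labels. Expected counts and TPM per gene and transcript were deposited by the authors, made from transcriptome alignments to mm10 with GENCODE M21 per the deposited file list. RSEM writes such columns. Posterior mean TPM and credibility bounds, a signal with no set sum, stand beside them per the file headers. A second quantification, with the columns kallisto writes, holds estimated counts and TPM that the authors made from the reads, and was summed here to genes. Effective length, another deposited column in bases, was length less 99 by RSEM. Not given in the sources used here are the aligner, the authors' tool versions and the use of strand in counting. CAST alleles were read against mm10, and the effect was not measured.

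The members and lists were chosen with earlier results of these data known. Named by rule were the 3 highest and 2 lowest genes of each complex, the paralogue families, the catalytic or core subunits, the 5 genes that differed most in each direction between libraries and between quantifications, every gene under 1 TPM, and members that are no subunit. Other genes, such as those with reads on copies, were named after their values were seen. A gene that the rule names is not reported here. Detected means at least 1 TPM in both libraries. Library differences used log2(TPM + 1) and a mean of 5 TPM. A fold against 3 counts or fewer is a bound at 3 counts per library, for counting error only. Copies were pseudogene entries at 95% identity or more over 100 bases (blastn 2.17.0). Motif letters were searched on both strands of RefSeq windows. TMM factors came from edgeR 4.0.16 in R 4.3.3 on rounded expected counts, and other steps from Python 3.11.15, pandas 2.3.3, numpy 2.4.6 and scipy 1.17.1. The fold and share steps were tested on simulated data. The alternatives were kallisto TPM, posterior mean TPM, kallisto effective lengths, other minimums and pseudocounts, other scalings and each library alone.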

Additional observations from a re-analysis of the deposited data

How the results depend on the processing

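Of the values recomputed, 94 moved by no more than the spread between the libraries or, for counts of genes, stayed within 1.5 times, 52 moved by more, and 1 changed sign. The 94 include each library taken alone, which, counts of genes aside, could not move by more than that spread. They therefore overstate how many values held under a real alternative. With 2 libraries that spread is itself poorly known, and the depth limits the genes at or under 3 counts. The sign change was the median library difference, 0.044 with TMM factors, and it was -0.12 with ERCC scaling. By kallisto the members took 6.89% of nuclear protein-coding TPM, complex II 0.223%, III 0.987%, IV 2.19% and V 1.53%. With kallisto effective lengths the shares were 2.21% for complex I, 0.225% for II, 1.25% for III, 3.0% for IV and 1.47% for V, and by posterior mean TPM 1.37% for V. An alternative added after seeing the data, Ndufa4 and Ndufa4l2 counted in complex I, gave 2.01% for I and 1.95% for IV. Median kallisto TPM, on its own scale, was 217, 256, 539, 646 and 303 for complexes I to V. With kallisto effective lengths it was 105 for I, 114 for II and 148 for V, and by posterior mean 356 for IV. The mean over subunits was 141 for I, 276 for III, 344 for IV and 226.9 for V. Keeping all members gave 262 for IV and 161 for V. The log2 ratio of Cox7a2 to Cox7a1 was -0.83 by kallisto and -1.70 with kallisto effective lengths, where that of Cox8a to Cox8b was -1.72. A further alternative added after seeing the data, reads on pseudogene copies added to the gene, gave 0.53 for Atp5g3 over Atp5g2. The log2 ratio of mitochondrial to nuclear messengers was 4.59, 4.71, 2.75 and 4.96 by kallisto for complexes I, III, IV and V, 4.46 and 5.93 by posterior mean for IV and V, and 4.75, 4.63 and 6.50 with kallisto effective lengths for III, IV and V. The top transcript's median share was 82.0% by kallisto. The cause of these shifts was not tested. Between 82 and 85 members were detected, 0 differed over 2-fold under each alternative run, and each library alone gave values within the spread, as 2 values always lie within 1 SD of their mean. Pairs with a gene at 3 counts or fewer gave no value under kallisto, posterior mean TPM or kallisto effective lengths. No paired analysis was possible because there is 1 group.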
